A study of Mus musculus with 6 samples.

Results

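The genes described here encode 10 plasma proteins of the acute phase response, chosen by symbol: Saa1, Saa2, Saa3, Orm1, Orm2, Hp, Hpx, Lcn2, Crp and Apcs. All 10 were found among the 22183 gene symbols of the deposited count table, and all 10 passed the filter on low counts that left 14681 genes. Messenger RNA had been sequenced from 6 mouse livers, 3 labelled PBS and 3 labelled DOX. All 6 carried the genotype label BucheKI/KI-Hep, described as overexpression of butyrylcholinesterase (gene symbol Bche) in hepatocytes, and all 6 had been treated with DDC. The labels expand none of PBS, DDC and DOX. No liver without DDC, no liver of another genotype and no wild-type liver given DOX was compared here, so an effect of the DOX agent and an effect of raised butyrylcholinesterase cannot be told apart. Not given in the sources used here were strain, sex, age, dose, time and the promoter of the knock-in, nor was it said whether each sample is its own animal. The p-values therefore rest on the spread of 3 samples per group, and that spread may be technical.

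When tissue is injured or infected, interleukin 6 (acting through the transcription factor STAT3) and interleukin 1 (acting through NF-kB) drive hepatocytes to make and secrete a set of plasma proteins, which is called the acute phase response. Serum amyloid A proteins ride on high-density lipoprotein, orosomucoids bind drugs and small lipophilic molecules, haptoglobin (Hp) and hemopexin (Hpx) capture free haemoglobin and free heme, lipocalin 2 (Lcn2) binds bacterial iron carriers, and the pentraxins Crp and Apcs bind phosphocholine and other ligands on damaged cells and microbes. In the mouse, Apcs (serum amyloid P) is the main acute phase pentraxin and Crp is a minor one, the reverse of the situation in humans.

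In these livers the 10 genes did not move as a block. Orm2 fell 3.75-fold in DOX livers, Apcs rose 1.73-fold, and the other 8 did not pass the test. Genes were tested with edgeR (quasi-likelihood F), and p-values were adjusted by Benjamini-Hochberg across the 14681 genes, with calls made where the adjusted value was under 0.05. Adjusted p-values below come from that fit unless another setting is named. Of all genes tested, 13.5% were called higher, 14.0% lower and 27.5% in either direction, so 1 higher and 1 lower call among 10 genes were near the background. Without DOX 2 the number of the 10 called lower was 3. PBS and DOX libraries were fully separated for 3 of the 10 genes, with Apcs higher (background 21.8%) and Orm2 and Hp lower (background 22.3%), against 44.1% in either direction. The median log2 fold change of the 10 was -0.19, against -0.0065 for all genes tested. Levels are normalised read counts in CPM (TMM-scaled), with SD over 3 libraries per group.

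**Figure D1:**
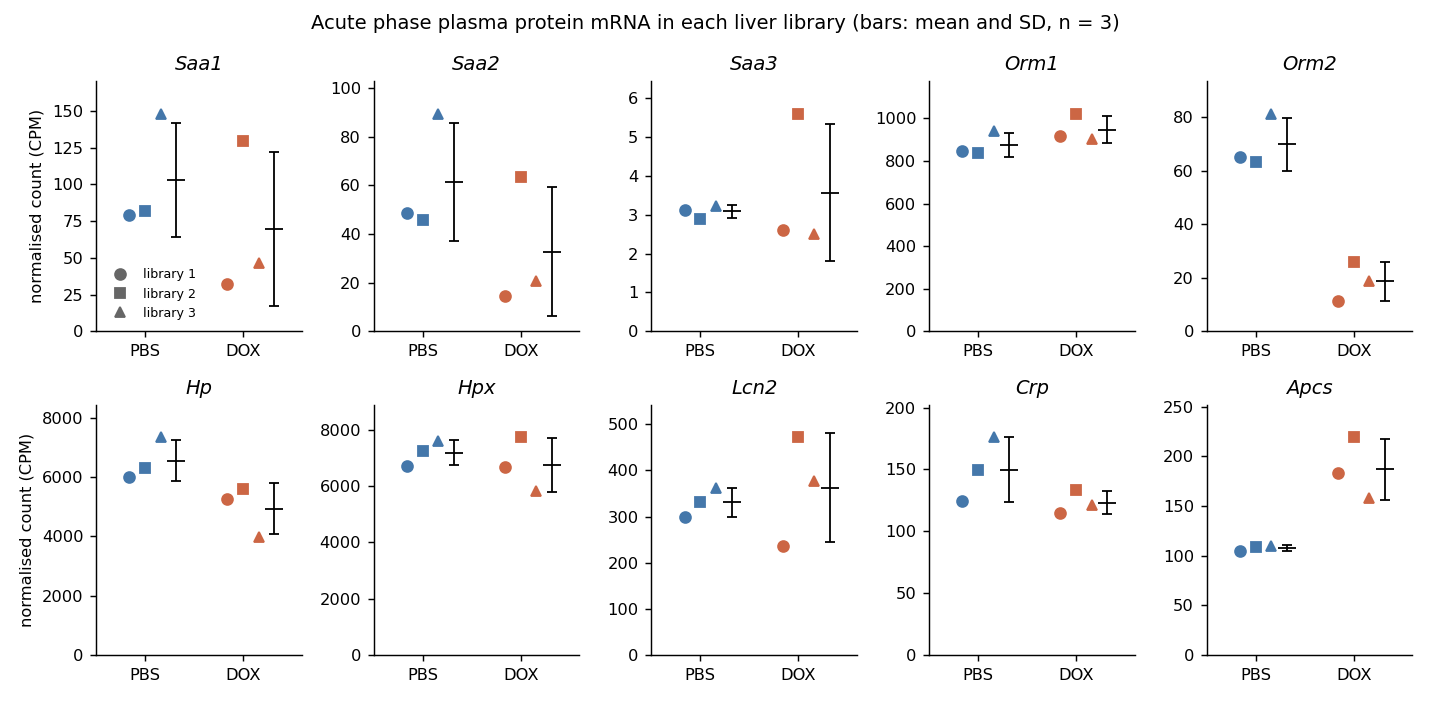
Normalised count (CPM, linear axis from 0) of each of the 10 genes in the 3 PBS (blue) and 3 DOX (orange) libraries, with symbols for library number and bars for mean and SD (n = 3). Orm2 and Apcs show separated groups with a call, Hp shows separated groups without a call, and Saa1, Saa2 and Saa3 are spread widely in the DOX group.

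Total counts ranged from 32476725 to 41921404 per library. Bche stood at 177 to 206 CPM in PBS and 1763 to 1938 CPM in DOX libraries. The genotype label is shared by both groups and gives no direction between them. The hepatocyte markers summed to 93679 to 100123 CPM in PBS and 96113 to 122397 CPM in DOX libraries. Most of that sum was the albumin gene Alb, at 70083 to 72445 CPM in PBS and 70899 to 92734 CPM in DOX libraries. The 12 stellate cell and fibroblast markers summed to 1435 to 1713 CPM in PBS and 895 to 1215 CPM in DOX libraries without overlap, and 7 of them fell (among them Col3a1 by 1.47 and Col1a1 by 1.46 on the log2 scale), 1 rose and 4 did not pass. Over all genes tested, 13.5% were called higher and 14.0% lower. Without PBS 1 the number of these markers that fell was 4. Their part in the results below was not tested. In bulk tissue, fewer cells of a type and less RNA per cell cannot be told apart.

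The serum amyloid A genes lie together on mouse chromosome 7 (GRCm38, GENCODE M21). Saa1 occupies chr7:46740497-46742980 on the minus strand, Saa2 occupies chr7:46751790-46754313 on the plus strand, so that the pair is divergently arranged, and Saa3 occupies chr7:46711998-46715700. The coding sequences of Saa1 and Saa2 were 95.1% identical, and 13.2% of the 50-base windows of the Saa1 transcript occurred unchanged in Saa2, so the authors' counting could have split reads between them. The sequence before the start sites is shown because the pair is as alike there as in the coding part, at 94.8% identity over 250 bases. The windows are from RefSeq (GRCm38.p6), read 5′ to 3′ on each gene's strand, chr7:46742981-46743230 for Saa1 (minus strand) and chr7:46751583-46751789 for Saa2 (plus strand, shortened where an annotated exon begins). Capitals mark a match to the C/EBP motif TTGCNNAA on either strand.
Saa1: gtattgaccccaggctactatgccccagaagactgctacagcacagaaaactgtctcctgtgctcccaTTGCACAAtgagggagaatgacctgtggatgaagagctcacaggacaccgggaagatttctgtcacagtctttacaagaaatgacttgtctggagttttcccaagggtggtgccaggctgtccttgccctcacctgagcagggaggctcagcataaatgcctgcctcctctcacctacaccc
Saa2: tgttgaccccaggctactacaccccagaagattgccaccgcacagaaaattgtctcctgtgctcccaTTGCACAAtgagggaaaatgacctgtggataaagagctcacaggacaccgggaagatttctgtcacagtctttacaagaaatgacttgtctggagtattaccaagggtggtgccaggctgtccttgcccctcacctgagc
The 4 motifs searched in the 250 bases before each start were TTGCNNAA (C/EBP), TTCNNNGAA (STAT) and core motifs of NF-kB and of the glucocorticoid receptor, each on both strands. They occurred in 9.56%, 7.02%, 1.41% and 0.368% of all 32851 promoter windows. Distances count from the start in the RefSeq table, which for some genes is not the GENCODE start. The same C/EBP letters stood 182 to 175 bases before the Saa1 start (position 46742980) and 183 to 176 bases before the RefSeq start of Saa2 (position 46751833), or 140 to 133 bases before the end of the printed Saa2 window. A match is only a match of letters, and the windows of Orm1 and Hp were not analysed here.

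Saa1, the major inducible serum amyloid A of hepatocytes together with Saa2, stood at 79.0, 81.9 and 148 CPM in PBS 1 to 3 and at 32.2, 129.6 and 46.6 CPM in DOX 1 to 3. DOX 2 lay inside the PBS range while DOX 1 and DOX 3 lay below all PBS libraries. The means were 103.0 ± 39.1 CPM in PBS and 69.5 ± 52.6 CPM in the DOX group (SD, n = 3), with a log2 fold change of -0.57 (SE 0.65, 95% interval -2.28 to 1.14, adjusted p = 0.57). Saa2 was measured at 48.7, 46.0 and 89.5 CPM in PBS and 14.5, 63.3 and 20.5 CPM in the DOX group. It had the same shape, with PBS 3 and DOX 2 above their neighbours, and gave a log2 fold change of -0.91 (SE 0.69, 95% interval -2.74 to 0.92, adjusted p = 0.396). Without DOX 2 the log2 fold change of Saa1 was -1.38 (adjusted p = 0.0665) and that of Saa2 was -1.80 (adjusted p = 0.0389). Without PBS 3 the values were -0.21 and -0.53, without DOX 1 they were -0.23 and -0.55, and without DOX 3 that of Saa1 was -0.35, so the size of both depended on single libraries. Over all alternative settings the adjusted p ran from 0.0665 to 0.875 for Saa1 and from 0.0389 to 0.693 for Saa2. With the counts of both genes added into a single row, the joint log2 change was -0.69 (SE 0.66, adjusted p = 0.5005).

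Saa3, made in many tissues by macrophages, fat cells and epithelia as well as by liver, was the scarcest of the 10 at 79 to 190 counts per library. It stood at 3.13, 2.90 and 3.23 CPM in PBS and 2.59, 5.60 and 2.51 CPM in the DOX group. The DOX libraries enclosed the PBS libraries on both sides, and the log2 fold change of 0.21 (SE 0.30, 95% interval -0.45 to 0.86, adjusted p = 0.641) became -0.26 without DOX 2 and was also below 0 in limma on log2 FPKM values. The summed level of 12 macrophage and Kupffer cell markers was 2007 to 2164 CPM in PBS and 2178 to 2588 CPM in DOX libraries, with DOX 2 the lowest of the DOX libraries. Of these 12, 4 rose, 2 fell and 6 did not pass (median -0.0030), beside 13.5% and 14.0% of all genes tested. Gpnmb alone stood at 187, 234 and 249 CPM in PBS and 432, 327 and 856 CPM in DOX libraries. The gap between the sums rests on Gpnmb, since the sums of the groups overlap once it is left out. Gpnmb missed the threshold in 7 of 15 settings. The part of macrophages and Kupffer cells in the Saa3 values was not tested. Saa4, the constitutively expressed relative in the same cluster, was measured at 70.4, 77.1 and 90.4 CPM in PBS and 61.2, 72.4 and 42.9 CPM in the DOX group and did not pass (log2 change -0.43, adjusted p = 0.092). It passed without DOX 2 (adjusted p = 0.0167) and with scaling by library totals alone (adjusted p = 0.0166), in a range of 0.0166 to 0.26 over the settings.

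The orosomucoid genes encode alpha-1-acid glycoproteins and sit in a row on chromosome 4, with Orm1 at chr4:63344560-63348163, Orm3 at chr4:63356162-63359511 and Orm2 at chr4:63362449-63365878, all on the plus strand (GRCm38, GENCODE M21). The coding sequences of Orm1 and Orm2 were 89.9% identical, with 63 differences in 621 bases, and 20.4% of the 50-base windows of the Orm1 transcript occurred in Orm2. The stretch of coding bases 138 to 197 is shown because it holds 17 of those differences and no other stretch of 60 bases held more. It comes from the GENCODE M21 transcripts, 5′ to 3′, and capitals mark the bases at which the genes differ.
Orm1: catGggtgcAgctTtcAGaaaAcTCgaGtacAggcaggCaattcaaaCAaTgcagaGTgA
Orm2: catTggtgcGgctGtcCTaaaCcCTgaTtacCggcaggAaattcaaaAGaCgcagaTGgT

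Orm1 was abundant and level. It stood at 846, 839 and 942 CPM in PBS 1 to 3 and 918, 1022 and 903 CPM in DOX 1 to 3, and the groups overlapped. The means were 876 ± 57.4 and 948 ± 65.0 CPM (SD, n = 3), with a log2 fold change of 0.11 (SE 0.12, 95% interval -0.16 to 0.38, adjusted p = 0.524).

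Orm2 fell in DOX livers. It was measured at 65.1, 63.3 and 81.4 CPM in PBS and 11.3, 26.1 and 18.6 CPM in the DOX group. The highest DOX library, at 26.1 CPM, lay below the lowest PBS library, at 63.3 CPM. The means were 69.9 ± 9.99 and 18.7 ± 7.38 CPM (SD, n = 3), and the log2 fold change was -1.91 (SE 0.29, 95% interval -2.60 to -1.22, adjusted p = 0.00468). The call held under every alternative setting run, with log2 fold changes of -2.22 to -1.65 and adjusted p up to 0.0266.

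Orm3, the least abundant of the cluster, pointed the other way without passing, at 5.48, 3.22 and 4.52 CPM in PBS and 6.01, 6.07 and 7.40 CPM in the DOX group (log2 fold change 0.56, SE 0.21, adjusted p = 0.0712). It passed in DESeq2 (adjusted p = 0.0486) and without PBS 1 (0.0424), in a range of 0.0424 to 0.231. The upstream windows of Orm2 and Orm3 are shown because these neighbours differed in response while their windows were 85.5% identical. They are from RefSeq (GRCm38.p6), plus strand, at chr4:63362199-63362448 and chr4:63355908-63356157, with the C/EBP match in capitals, 120 to 113 bases before the RefSeq start of Orm2 (position 63362449) and 121 to 114 bases before that of Orm3 (position 63356158).
Orm2: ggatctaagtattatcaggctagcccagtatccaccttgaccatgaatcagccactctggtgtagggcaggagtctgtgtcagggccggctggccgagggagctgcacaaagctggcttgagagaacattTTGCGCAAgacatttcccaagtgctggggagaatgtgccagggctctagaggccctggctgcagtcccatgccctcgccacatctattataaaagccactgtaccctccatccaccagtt
Orm3: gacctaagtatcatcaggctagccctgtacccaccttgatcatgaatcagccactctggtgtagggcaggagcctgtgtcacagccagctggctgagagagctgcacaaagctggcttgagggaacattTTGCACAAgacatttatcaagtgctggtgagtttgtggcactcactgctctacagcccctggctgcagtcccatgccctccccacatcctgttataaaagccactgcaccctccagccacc
With the 3 orosomucoid genes added into a single row, the sum was 950 ± 67.6 CPM in PBS and 973 ± 70.7 CPM in the DOX group (SD, n = 3; a log2 difference of 0.03, SE 0.13, adjusted p = 0.866), since Orm1 made up most of it. Ambp, another plasma protein of the lipocalin family that is cut into alpha-1-microglobulin and bikunin, did not pass (2174 ± 125 and 2317 ± 341 CPM, n = 3 with SD; log2 fold change 0.09, adjusted p = 0.677).

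Haptoglobin and hemopexin were the most abundant of the 10 and took 85.6 to 89.3% of their joint counts. Hp, at chr8:109575128-109579172, stood at 6000.5, 6312 and 7331 CPM in PBS and 5241, 5590.1 and 3957 CPM in the DOX group. All 3 DOX libraries lay below all 3 PBS libraries. The means were 6548 ± 696 and 4929 ± 860.1 CPM (SD, n = 3), with a log2 fold change of -0.41 (SE 0.17, 95% interval -0.77 to -0.05, adjusted p = 0.0861). Hp did not pass here, but it passed in DESeq2 (adjusted p = 0.0281), with scaling by library totals alone (0.0159) and without DOX 2 (0.0413), and its adjusted p ran from 0.0159 to 0.245 over the settings.

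Hpx, at chr7:105591613-105600137, was measured at 6726, 7235 and 7598 CPM in PBS and 6672, 7727 and 5839 CPM in the DOX group. The DOX libraries enclosed the PBS range. The log2 fold change was -0.09 (SE 0.15, 95% interval -0.42 to 0.24, adjusted p = 0.691).

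Lcn2, the siderophore-binding lipocalin, lies at chr2:32384633-32388252 and is a product of injured hepatocytes, of duct epithelium and of neutrophil granules. It stood at 298, 332 and 361 CPM in PBS and 237, 472 and 378 CPM in the DOX group. The DOX libraries lay on both sides of the PBS libraries, with an SD of 118 against 31.4 CPM. The log2 fold change of 0.13 (SE 0.21, 95% interval -0.34 to 0.61, adjusted p = 0.684) was -0.094 without DOX 2 and -0.024 with scaling by library totals alone. The 12 neutrophil markers summed to 45.6 to 69.1 CPM in PBS and 44.4 to 95.3 CPM in DOX libraries, and 8 of them were tested. Of those 8, the granule genes Ngp (log2 fold change 2.98), Retnlg (1.99) and Mmp8 (1.02) rose, beside 13.5% of all genes tested. The receptors Csf3r (-1.06) and Cxcr2 (-0.88) fell, beside 14.0% of all genes tested, and 3 did not pass. The median of the 8 was 0.63. With single libraries left out, 0 to 4 rose, with 0 without DOX 1 and 1 without DOX 3, PBS 1 or PBS 3, and 1 fell without DOX 3, PBS 1 or PBS 3. The granule genes that rose were scarce, so their fold changes rest on few reads. Ngp had 8, 4 and 0 counts in PBS 1 to 3 and 38, 12 and 28 in DOX 1 to 3. Retnlg had 17, 43 and 18 counts in PBS and 144, 27 and 80 in DOX libraries, and its groups overlapped. Mmp8 had 55, 67 and 30 counts in PBS and 101, 68 and 76 in DOX libraries. Ly6g and Mpo, a gene of neutrophil precursors, had at most 1 count in any library. DOX 1 had the highest neutrophil sum and the lowest Lcn2 of the DOX libraries, and the part of neutrophils in the Lcn2 values was not tested. The 10 bile duct markers summed to 825 to 1000.3 CPM in PBS and 590.3 to 856 CPM in DOX libraries, lowest in DOX 2, and their part was not tested either.

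The pentraxin genes are both on chromosome 1, with Crp at chr1:172698055-172833031 on the plus strand and Apcs at chr1:172893961-172895041 on the minus strand. Their coding sequences were 58.3% identical and no 50-base window of the Crp transcript occurred in Apcs. Apcs rose in DOX livers, from 104, 109 and 110.2 CPM in PBS to 183, 219 and 158 CPM. The lowest DOX library was above the highest PBS library. The means were 108 ± 3.0 and 187 ± 30.7 CPM (SD, n = 3), the log2 fold change was 0.79 (SE 0.13, 95% interval 0.52 to 1.07, adjusted p = 0.0015), and the call held under every alternative setting run, with log2 fold changes of 0.62 to 0.90 and adjusted p up to 0.00994. Crp stood at 124, 149.7 and 176 CPM in PBS and 115, 134 and 122 CPM in the DOX group. The groups overlapped, with PBS 1 between the DOX libraries, and the log2 fold change was -0.28 (SE 0.13, 95% interval -0.57 to 0.01, adjusted p = 0.135). With scaling by library totals alone Crp passed (log2 fold change -0.44, adjusted p = 0.0197), in a range of 0.0197 to 0.452 over the settings.

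The upstream windows of the pentraxin pair are shown because Apcs rose and Crp did not pass. They are from RefSeq (GRCm38.p6), at chr1:172895055-172895304 for Apcs (minus strand) and chr1:172697806-172698054 for Crp (plus strand), and were 42.6% identical. Capitals mark a match to the STAT motif TTCNNNGAA in Apcs, 244 to 236 bases before its RefSeq start (position 172895054). Crp had no match to any of the 4 motifs. No other window searched held a STAT match, that of the called gene Orm2 included. The windows of Saa3, Hpx and Lcn2, which did not pass, also held C/EBP matches. A link between a match and a response was not tested.
Apcs: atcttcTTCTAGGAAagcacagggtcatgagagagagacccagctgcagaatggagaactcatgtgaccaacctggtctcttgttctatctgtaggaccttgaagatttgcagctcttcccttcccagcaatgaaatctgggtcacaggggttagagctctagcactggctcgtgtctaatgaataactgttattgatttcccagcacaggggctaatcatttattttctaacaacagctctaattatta
Crp: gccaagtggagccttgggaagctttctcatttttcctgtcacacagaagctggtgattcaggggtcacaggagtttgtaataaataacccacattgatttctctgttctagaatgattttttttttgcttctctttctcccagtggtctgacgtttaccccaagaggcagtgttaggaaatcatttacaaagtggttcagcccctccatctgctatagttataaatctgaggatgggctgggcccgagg

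**Figure D2:**
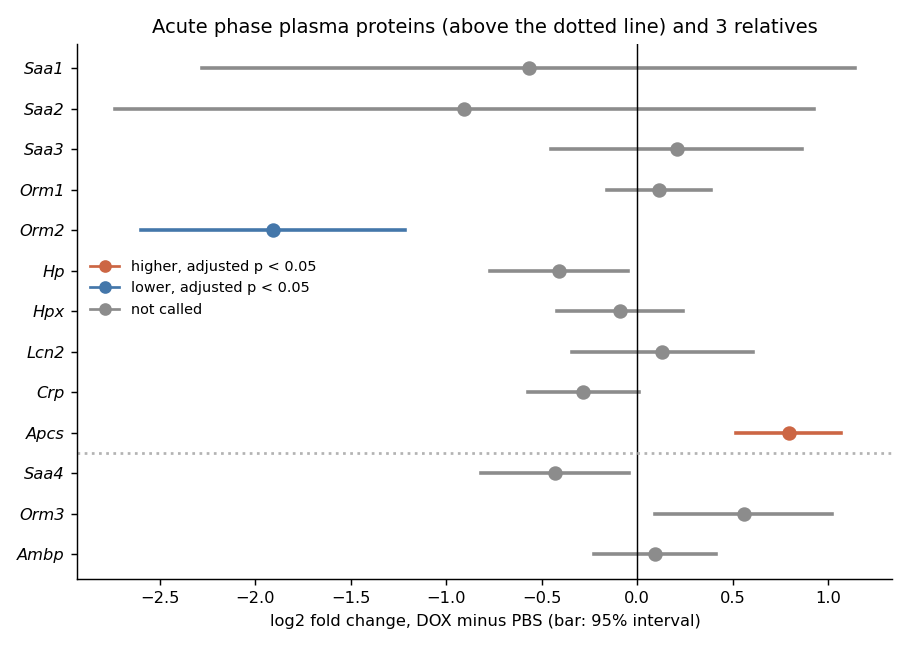
Log2 fold change of DOX against PBS (points) with the 95% interval of the edgeR fit (bars) for the 10 genes and, below the dotted line, 3 relatives. Orm2 at -1.91 and Apcs at 0.79 are the coloured calls, and the intervals of Saa1 and Saa2 are the widest.

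Levels per transcript length were compared with the deposited FPKM values. In PBS livers Hp, at 5129 ± 395 FPKM, and Hpx, at 5122 ± 229 FPKM, ranked 9 and 10 among all genes and did not differ beyond their spread. Orm1 followed at 1185 ± 40.0 FPKM and Lcn2 at 409 ± 30.3 FPKM, each clear of its neighbours. Saa1 (130.3 ± 45.1 FPKM) and Apcs (129 ± 3.70 FPKM) could not be separated, nor Crp (93.0 ± 13.8 FPKM) from Saa2 (77.9 ± 28.3 FPKM) or Saa2 from Orm2 (69.9 ± 7.69 FPKM). Saa3 was last at 6.13 ± 0.215 FPKM, below Orm2 without overlap (SD, n = 3 throughout). In DOX livers Apcs moved up to the fifth place at 200.9 ± 29.4 FPKM, above Saa1 at 79.1 ± 58.7 FPKM without overlap, and Orm2 dropped to 16.8 ± 6.52 FPKM. Together the 10 genes took 1.53 to 1.72% of all counts in PBS libraries and 1.11 to 1.44% in DOX libraries.

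Ratios of related genes within a library do not depend on how libraries are scaled. The FPKM ratio of Orm1 to Orm2 was 17.6, 17.9 and 15.6 in PBS 1 to 3 and 109.6, 53.0 and 65.5 in DOX 1 to 3. The ratio of Apcs to Crp was 1.63, 1.40 and 1.21 in PBS and 3.09, 3.17 and 2.51 in DOX livers. For both pairs the groups did not overlap. The ratio of Saa1 to Saa2 was narrow inside each group, at 1.62, 1.78 and 1.65 in PBS and 2.22, 2.04 and 2.26 in DOX livers, although each gene alone varied widely between DOX libraries. Hpx to Hp went from 0.942 to 1.04 in PBS to 1.16 to 1.34 in DOX livers, and Saa1 to Saa3 from 16.2 to 29.4 to 7.97 to 14.8. The 6 pairs were chosen after values were seen, and Orm2, Apcs and Hp were already separated between groups on their own. Ratios with Orm2, Apcs or Hp restate those differences. No share over other gene pairs was computed, while 44.1% of single genes tested did not overlap. Of the 6 ratios, Saa1 to Saa4 alone overlapped between groups. The exact two-sided permutation p over libraries was 0.1 for each of the other 5 (0.12 after Benjamini-Hochberg adjustment over the 6), which is the smallest that 3 against 3 libraries can give, so none can reach 0.05.

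**Figure D3:**
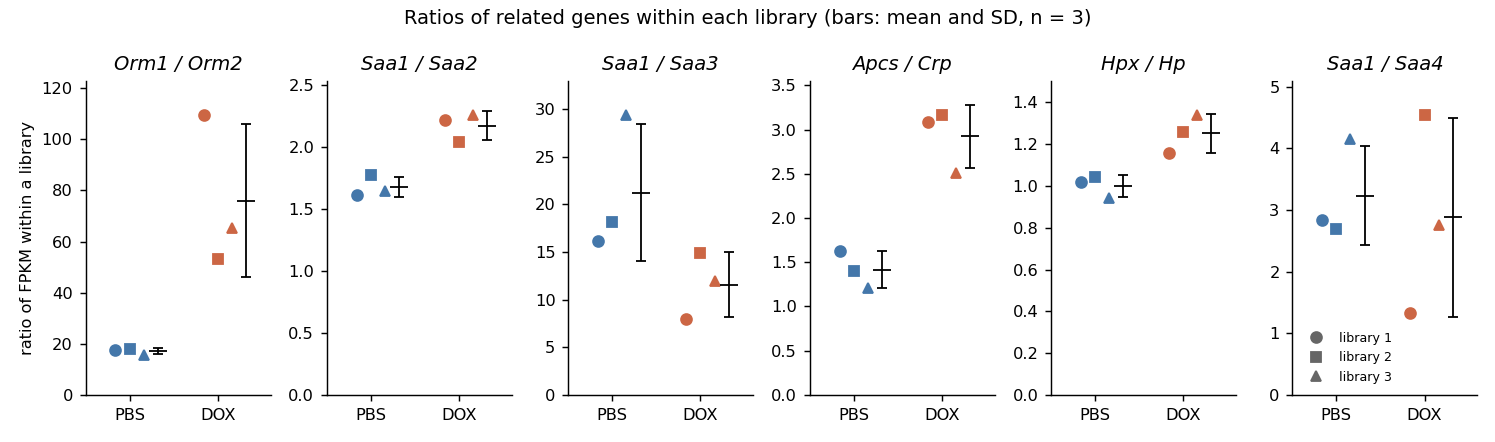
FPKM ratio of related genes within each library (linear axes from 0), PBS in blue and DOX in orange, with bars for mean and SD (n = 3). The groups are apart in all panels except Saa1 to Saa4, with the widest gap for Orm1 to Orm2.

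Inside the groups, the 10 genes shared their highest library in TMM-scaled CPM but not the order of the others. PBS 3 was the highest PBS library for 10 of the 10 genes and DOX 2 the highest DOX library for 10 of the 10. This pattern was taken from the values of the 10 genes themselves, and the shares below are for it alone. Close copies such as Saa1 and Saa2 are not independent, and the pattern was not tested. In the deposited FPKM values DOX 2 was again highest for all 10, but PBS 3 was not. There PBS 2 exceeded PBS 3 for Hpx (5278 against 5229 FPKM) and Apcs (133.7 against 127.7). PBS 1 exceeded it for Saa3 (6.31 against 6.20). Over all genes tested, PBS 3 was highest for 34.7%, DOX 2 for 35.7% and both for 17.1%, and over the 1498 genes averaging 100 CPM or more the shares were 55.0%, 40.9% and 30.8%. Of 32 other genes of the acute phase response, 11 had both. The members' median within-group SD of log2 CPM was 0.39 in DOX and 0.14 in PBS libraries, against 0.20 and 0.15 for all genes tested and 0.16 and 0.11 for the genes of at least 100 CPM. The members' PBS spread thus lay between those of the reference sets. DOX 2 lay above the DOX mean by 1.16 (Saa1), 1.25 (Saa2), 0.75 (Saa3), 0.56 (Orm2) and 0.44 (Lcn2) on the log2 scale, and by 0.11 to 0.24 for the other 5 genes. PBS 3 and DOX 2 also had the lowest mitochondrially encoded share of their groups (3.45% and 5.11% of counts, against 4.52 to 4.58% and 5.39 to 6.81%), the lowest neutrophil marker sums and the highest hepatocyte marker sums, which are mostly Alb. The part of these features in the spread was not tested.

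**Figure D4:**
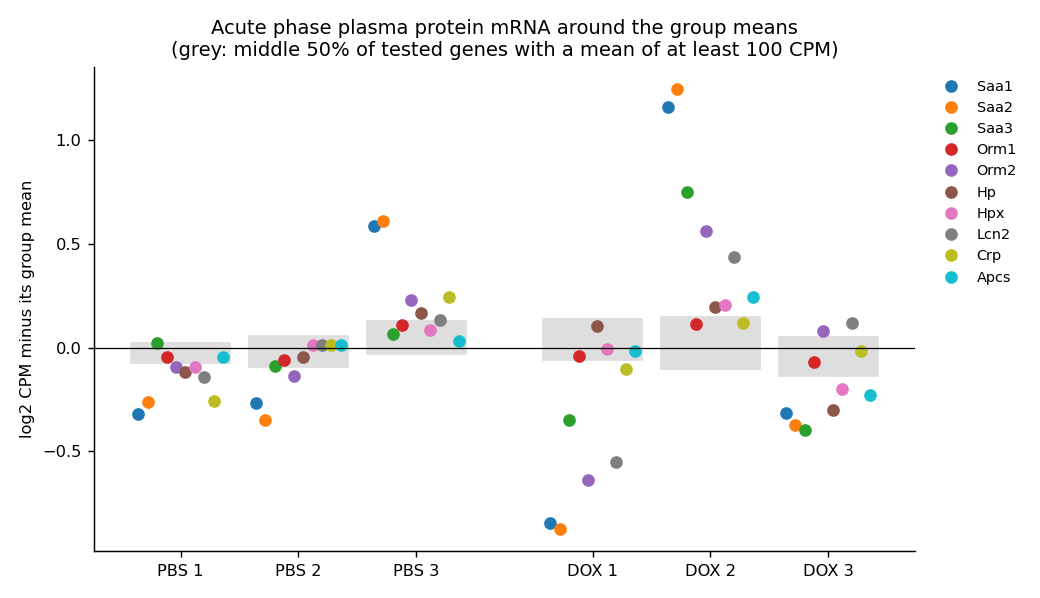
Log2 CPM of each of the 10 genes in each library minus the mean of its group, with the grey band giving the middle 50% of the tested genes averaging 100 CPM or more. In PBS 3 and DOX 2 every gene is above 0, with Saa1 and Saa2 highest at 1.16 and 1.25 in DOX 2.

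Genes with the most similar profile over the 6 libraries were found by root-mean-square distance of centred log2 CPM among 12742 genes outside the 10. For Saa1 they included the chemokine Cxcl2 (distance 0.14) and Trim56 (0.18), both nearer to it than Saa2 was (0.20). For Hp they were Hcfc1r1 (0.03), the growth hormone receptor Ghr (0.04) and Gltpd2 (0.05), and for Lcn2 they were Ccdc166 (0.06), the erythroid heme synthesis enzyme Alas2 (0.06) and Nt5dc3 (0.09). Among the genes named here, Gltpd2 passed the test (log2 fold change -0.49, adjusted p = 0.0157). A search of 12742 genes over only 6 libraries returns close profiles in any case, whereas Saa2 was the nearest of only 9 genes. Nearness alone therefore shows no link between genes. Cxcl2 was also scarce, at 29 to 122 counts per library.

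Of 32 other genes counted as positive acute phase reactants, most for plasma proteins but a few for cell-bound ones such as metallothioneins and Steap4, 15 rose, 6 fell and 11 did not pass, with a median log2 fold change of 0.31. Over all genes tested, the shares were 13.5% and 14.0%. With single libraries left out, 11 to 13 rose and 4 to 8 fell. Hamp, the iron hormone hepcidin, went from 371 ± 54.8 to 1199 ± 202 CPM (n = 3, SD), with log2 fold change 1.69 and adjusted p = 9.77e-05, the metallothionein Mt2 rose by 1.27 on the log2 scale, and the alpha-1-antitrypsin genes Serpina1d, Serpina1b, Serpina1a and Serpina1c rose by 1.14, 1.03, 0.92 and 0.82. Serpina1e rose by 2.60 on the same scale (SE 0.556, adjusted p = 0.029). The Serpina1 genes are close copies, and how reads shared between them were counted is not given in the sources used here. The fibrinogen genes Fgb, Fgg and Fga, also among the 15 and named to show the abundant members after their values were seen, rose by 0.92, 0.79 and 0.65. The 6 that fell, likewise named to spell out the count, were the metalloreductase Steap4 (-1.07), the interleukin 1 antagonist Il1rn (-0.91), Serpina3g (-0.81), the C1 inhibitor Serping1 (-0.75), Serpina10 (-0.57) and the lectin Mbl2 (-0.45).

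Of 14 negative acute phase proteins, which hepatocytes usually make less of during the response, 2 rose, 1 fell and 11 did not pass (median 0.02), no more than the 27.5% called over all genes tested. Fetub and the retinol carrier Rbp4 rose by 0.74 and 0.59 on the log2 scale, and Serpina6, the corticosteroid-binding globulin, fell from 71.3 ± 11.2 to 16.4 ± 7.11 CPM (n = 3, SD), with log2 fold change -2.12 and adjusted p = 0.00688. Rbp4 had an adjusted p of up to 0.0737 over the settings. Without DOX 2 the number that fell was 2, with library totals alone it was 3, and without PBS 1 the number that rose was 1.

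**Figure D5:**
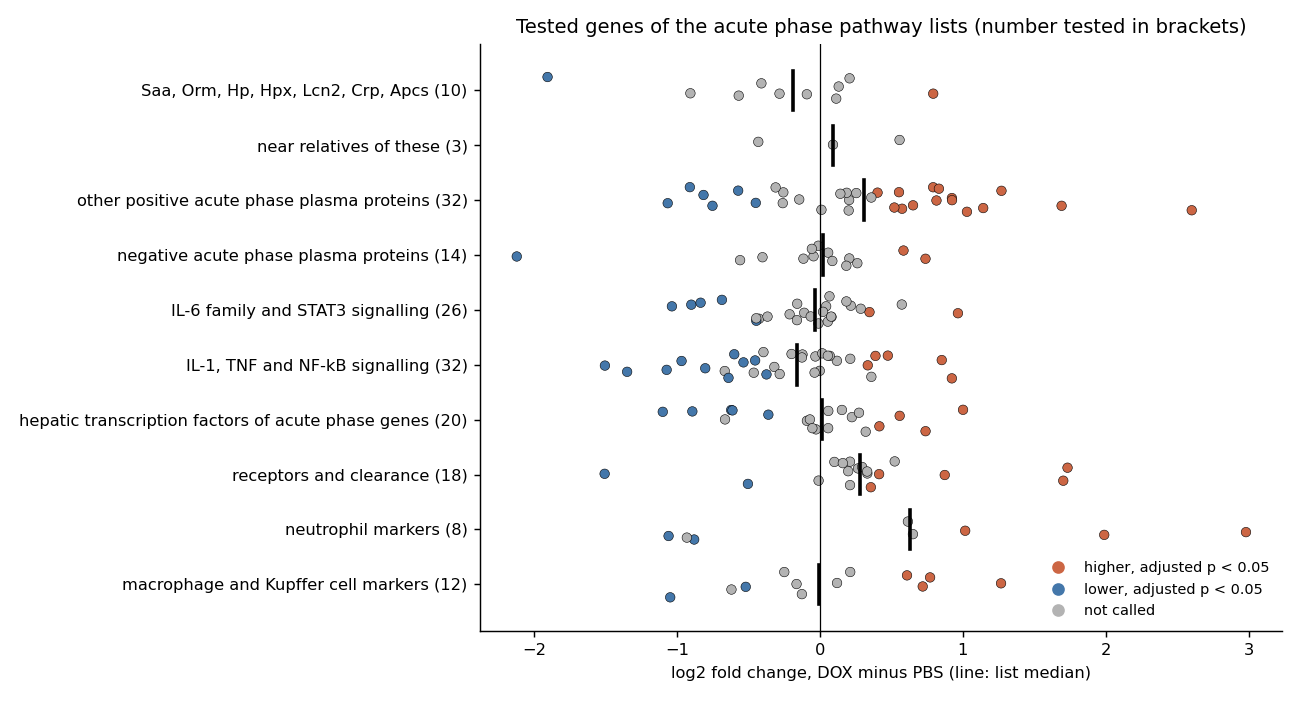
Log2 fold change of every tested gene in the lists around the acute phase response, coloured where called, with a line at each list's median and the number tested in brackets. The list of other positive acute phase genes lies mostly above 0 with a median of 0.31, while the 10 genes studied have a median of -0.19.

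Upstream of these genes, the interleukin 6 family and STAT3 list had 26 tested genes, of which 2 rose and 5 fell (median -0.04), together near the 27.5% called over all genes tested. The cytokine Il6 itself had at most 8 counts in any library and was not tested. The receptor gene Il22ra1 rose (log2 fold change 0.97, adjusted p = 0.000552), whereas the genes that fell included the nuclear NF-kB partner Bcl3 (-0.83), the kinase gene Tyk2 (-0.69), the oncostatin M receptor Osmr (-0.45) and the cytokine Lif (-0.90). Lif and Osmr missed the threshold in some settings, with adjusted p up to 0.097 and 0.0633. With library totals alone, or without PBS 1, PBS 2, PBS 3 or DOX 3, 1 gene of the list rose, and 3 fell without DOX 1, PBS 2 or PBS 3. Stat3 and its feedback inhibitor Socs3 had log2 fold changes of 0.19 and 0.08 and did not pass (adjusted p = 0.232 and 0.596).

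Of 32 genes of interleukin 1, TNF and NF-kB signalling, 5 rose and 10 fell (median -0.16), beside 13.5% and 14.0% of all genes tested. With scaling by library totals alone 2 rose and 12 fell, while over all genes 1028 were then higher and 3429 lower. The NF-kB subunit Nfkb2 went from 28.8 ± 3.07 to 11.3 ± 0.812 CPM (n = 3, SD), with log2 fold change -1.35 and adjusted p = 8.08e-05. The feedback inhibitor Tnfaip3 (-1.07), the receptor gene Tlr2 (-0.97) and Nfkbie (-0.80) also fell, and the interleukin 1 receptor Il1r1 (0.92) and its adaptor Traf6 (0.85) rose. The numbers that rose and fell were 2 and 7 without PBS 2, and 3 rose without PBS 1, PBS 3 or DOX 3.

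Among 20 transcription factors and hormone-response genes of the liver, 4 rose and 5 fell (median 0.02), beside 13.5% and 14.0% of all genes tested. Cebpd, a C/EBP factor that rises in the acute phase response, rose (log2 fold change 0.56, adjusted p = 0.00704), and the glucocorticoid-responsive genes Per1 and Fkbp5 rose by 1.0 and 0.74. Tsc22d3, another glucocorticoid-responsive gene of the list, had a log2 fold change of 0.15 and did not pass (adjusted p = 0.428). Ppara, Cebpg and Foxa1 fell, with log2 fold changes of -1.10, -0.62 and -0.61. The number that fell was 3 when PBS 2, PBS 3 or DOX 3 was left out.

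Of 18 tested genes for receptors and clearance of these plasma proteins, 5 rose and 2 fell (median 0.28), beside 13.5% and 14.0% of all genes tested. Cd163, the macrophage receptor for haptoglobin bound to haemoglobin, went from 25.8, 15.9 and 29.7 CPM in PBS to 62.9, 90.6 and 84.0 CPM in the DOX group (log2 fold change 1.73, SE 0.23, adjusted p = 0.00191). The heme-degrading enzyme Hmox1 rose from 196 ± 23.7 to 359.7 ± 29.1 CPM (n = 3, SD), with log2 fold change 0.87 and adjusted p = 0.00092. The immunoglobulin receptors Fcgr3 and Fcgr1, which also bind pentraxins, had log2 fold changes of 0.41 and -0.50, and Fcgr3 reached an adjusted p of 0.0935 among the settings. Mmp9, also on this list, fell by 1.51 on the log2 scale. Ager, a receptor that binds serum amyloid A, rose from a PBS mean of 0.306 CPM and missed the threshold in 8 of 14 settings. Beside Cd163, the macrophage marker sums given above were 2007 to 2164 and 2178 to 2588 CPM, and they overlap once Gpnmb is left out. The part of macrophages in the Cd163 values was not tested. The number that rose was 7 without DOX 2, 2 without PBS 1, 3 without PBS 2, PBS 3 or DOX 3, and 2 with scaling by library totals alone. Lrp1, the receptor for hemopexin bound to heme, had a log2 fold change of -0.01 (adjusted p = 0.974).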

How the data were processed

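Per the labels' protocols, liver RNA came from RNeasy columns and went into SMARTER mRNA libraries. The authors deposited whole-number counts per gene symbol for 6 libraries, with no normalization, and FPKM values, which equal each count over 1 length per gene and over its library's total. The submitters' processing notes list GRCm38, mm10 and hg38 with no role, with aligner, counter, strand setting and annotation not given in the sources used here, so near-identical copies are uncertain.

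Samples were grouped by title. Genes were kept by filterByExpr (minimum count 10, minimum total 15), scaled by TMM and tested with edgeR 4.0.16 (R 4.3.3, quasi-likelihood, robust) with group as the only term. Alternatives used DESeq2 1.42.0, limma 3.58.1 on log2(FPKM + 1) or log2(FPKM + 0.1), other scalings and filters, a replicate block, each library left out in turn and, chosen after seeing the data, summed copies. Libraries of a group differed far beyond sampling noise (chi-square per degree of freedom 28.2 to 78.5). The procedure was tested on simulated data. The 10 genes and all lists were chosen with earlier results of these data known; 223 of 227 list entries were found. Named genes were the 10, their relatives, up to 6 called genes per list by smallest p (2 where none was called), Bche and the 3 nearest profiles of Saa1, Hp and Lcn2. Other genes named to spell out a count or a sum, or as pathway members (Stat3, Socs3, Il6, Il1a, Il1b, Lrp1, Tsc22d3, Serpina1e, Alb, the collagens, the fibrinogens), and the pairs for ratios were chosen after values were seen. Some genes that this rule names are not reported here. Motifs were chosen by hand. Intervals take no account of PCR duplicates.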

Additional observations from a re-analysis of the deposited data

How the results depend on the processing

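The call of Apcs as higher and of Orm2 as lower kept its side of the threshold under all 15 alternatives. The number of the 10 genes called lower was 2 in DESeq2 (with Hp), and 3 with library totals alone, with limma on log2(FPKM + 1) and with limma on log2(FPKM + 0.1) (with Hp and Crp each time); with single libraries left out it was 1 to 3, reaching 3 without DOX 2 (with Saa2 and Hp), and 1 was higher throughout. Over all genes, 1028 were higher and 3429 lower with library totals alone, 917 and 3202 in limma with a pseudocount of 1, and 948 and 3227 with 0.1; left-out libraries gave 1208 to 2440 higher and 1305 to 2348 lower. Library totals alone moved the median of all genes to -0.16 on the log2 scale and the higher share of calls from 48.9 to 23.1%.

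Directions of genes that were not called turned in places, by construction of the scaling or for a cause that was not tested. With library totals alone, log2 fold changes were -0.042 for Orm1, -0.024 for Lcn2, -0.068 for Ambp, -0.0093 for Fabp4, -0.0020 for Alas2 and -0.059 for Nt5dc3. In limma with a pseudocount of 1 they were -0.035 for Saa3, -0.043 for Orm1, -0.077 for Lcn2, -0.074 for Ambp, -0.014 for Fabp4, -0.048 for Alas2 and -0.062 for Nt5dc3. With 0.1 they were -0.051 for Saa3, -0.043 for Orm1, -0.077 for Lcn2, -0.075 for Ambp, -0.014 for Fabp4, -0.0064 for Ccdc166, -0.061 for Alas2 and -0.082 for Nt5dc3. With single libraries left out the ranges were -0.26 to 0.40 for Saa3, -0.19 to 0.0023 for Hpx, -0.094 to 0.36 for Lcn2, -0.0016 to 0.20 for Ambp, -0.047 to 0.39 for Ccdc166, -0.13 to 0.39 for Alas2 and -0.099 to 0.27 for Nt5dc3. Summing Saa1 with Saa2, or the 3 orosomucoid genes, changed no direction relative to Saa1 or Orm1.

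The replicate numbers are not said to pair libraries, and deviations of same-numbered libraries correlated at 0.08, -0.07 and -0.13 over genes, so the numbers were not treated as pairs. With a replicate block 1633 genes were higher and 1849 lower, and of the 10 genes 1 was higher and 1 lower (Orm2 log2 fold change -1.97, Apcs 0.78). With 3 libraries per group, the intervals of Saa1 and Saa2 are too wide to show changes of the size seen for Apcs.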
